A study of Mus musculus with 15 samples.

Results

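Cytochrome P450 enzymes are haem-containing monooxygenases that insert an oxygen atom into drugs, fatty acids, steroids, retinoids and bile acids. In small-intestinal enterocytes the Cyp2c and Cyp3a subfamilies are known for first-pass oxidation of swallowed compounds, and the Cyp2j and Cyp4f subfamilies for epoxidation and omega-hydroxylation of arachidonic acid and related fatty acids. Many P450 genes are switched on by ligand-activated nuclear receptors, among them the pregnane X receptor (Nr1i2), the constitutive androstane receptor (Nr1i3) and the vitamin D receptor (Vdr), each paired with a retinoid X receptor. The family is described here as all genes whose symbol is Cyp followed by a digit, except Cyp51. They numbered 86 of the 19938 genes measured, fell into 36 subfamilies, and each was read by a single probe set.

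The arrays measured RNA of small-intestinal epithelium taken from wild-type BALB/c mice at 10 weeks of age. An untreated control group and groups given RANKL for 1, 2, 3 or 4 days had 3 arrays each, 15 in all. RANKL, the TNF-family cytokine that drives the differentiation of M cells in the epithelium over lymphoid follicles, was injected into the peritoneal cavity as a fusion with glutathione S-transferase (GST). No samples of mice injected with GST or vehicle are included, so RANKL, GST and the injection itself cannot be told apart in comparisons with control. The sources do not say whether 3 arrays stand for 3 mice, and p-values then measure the spread between these samples, which may be technical. The epithelium was peeled off whole with EDTA, so a lower value can come from fewer cells of a type or from less RNA per cell, and these cannot be told apart. All values below are log2 intensities after quantile normalization, a change is a difference of log2 group means, and called means an adjusted p under 0.05 in limma over all 19938 genes.

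Arrays correlated at 0.968 to 0.996 and none were identical. RANKL day 1 replicate 2 stood apart in having the narrowest spread of values, an interquartile range of 1.95 log2 units against 2.26 to 2.55 on the other arrays. Y-linked genes, which mark background here because Xist was at 11.93 or higher on every array, lay between 4.88 and 5.50. For 70 of the 86 P450 genes every array lay above that range. By mean level, 57 of the 86 were among the dimmest 40% of genes and 29 were not.

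On days 1, 2 and 3 every P450 call was a fall, and on day 4 the only call was a rise. On day 1, 6 of the 86 genes fell and 0 rose, against 3.94% of all genes called, 1.94% lower and 2.00% higher. On day 2, 7 fell and 0 rose, against 2.57% of all genes called, 1.05% lower and 1.52% higher. On day 3, 6 fell and 0 rose, against 2.96% of all genes called, 1.24% lower and 1.72% higher. On day 4, 1 rose and 0 fell, against 0.908% of all genes called, 0.818% higher and 0.0903% lower. In all, 9 of the 86 were called on at least 1 day against control, where 5.87% of all genes were. The 4 comparisons share the control arrays.

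The lower values were not confined to the called genes on day 1. There, 59 of the 86 genes (68.6%) had a lower mean than in control, against 51.8% of all genes, and the median change was -0.07 against -0.01. The share with a lower mean was 60.5% on day 2 (56.7% of all genes), 55.8% on day 3 (53.2%) and 44.2% on day 4 (47.9%). All 3 arrays of the day lay below all 3 controls in 16 of the 86 genes on day 1 (8.51% of all genes), 16 on day 2 (9.44%), 15 on day 3 (9.90%) and 4 on day 4 (6.16%). They lay above all 3 controls in 3 of the 86 on day 1 (6.08% of all genes), 6 on day 2 (8.09%), 8 on day 3 (12.3%) and 11 on day 4 (12.1%). Without day 1 replicate 2, the array with the narrow spread, 9 genes were called on day 1, 7 on day 2, 10 on day 3 and 2 on day 4. All genes called then numbered 1005, 721, 1189 and 338, against 785, 513, 590 and 181 with all arrays. Without control replicate 3, the counts on days 1, 2 and 3 were 3 each, where 445, 283 and 270 of all genes were called. The day 2 count was 4 without day 2 replicate 2 (288 of all genes called). The day 3 count was 3 without day 3 replicate 3 (236 of all genes). The day 4 count was 3 without day 3 replicate 2 (185 of all genes) or day 4 replicate 3 (133). In 10 of the 15 fits that left out 1 array the day 4 count was 0, namely without any 1 control, day 1 replicate 1 or 3, day 2 replicate 1 or 2, day 3 replicate 3, or day 4 replicate 1 or 2. All genes called on day 4 in those fits numbered 94 to 180.

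**Figure D1:**
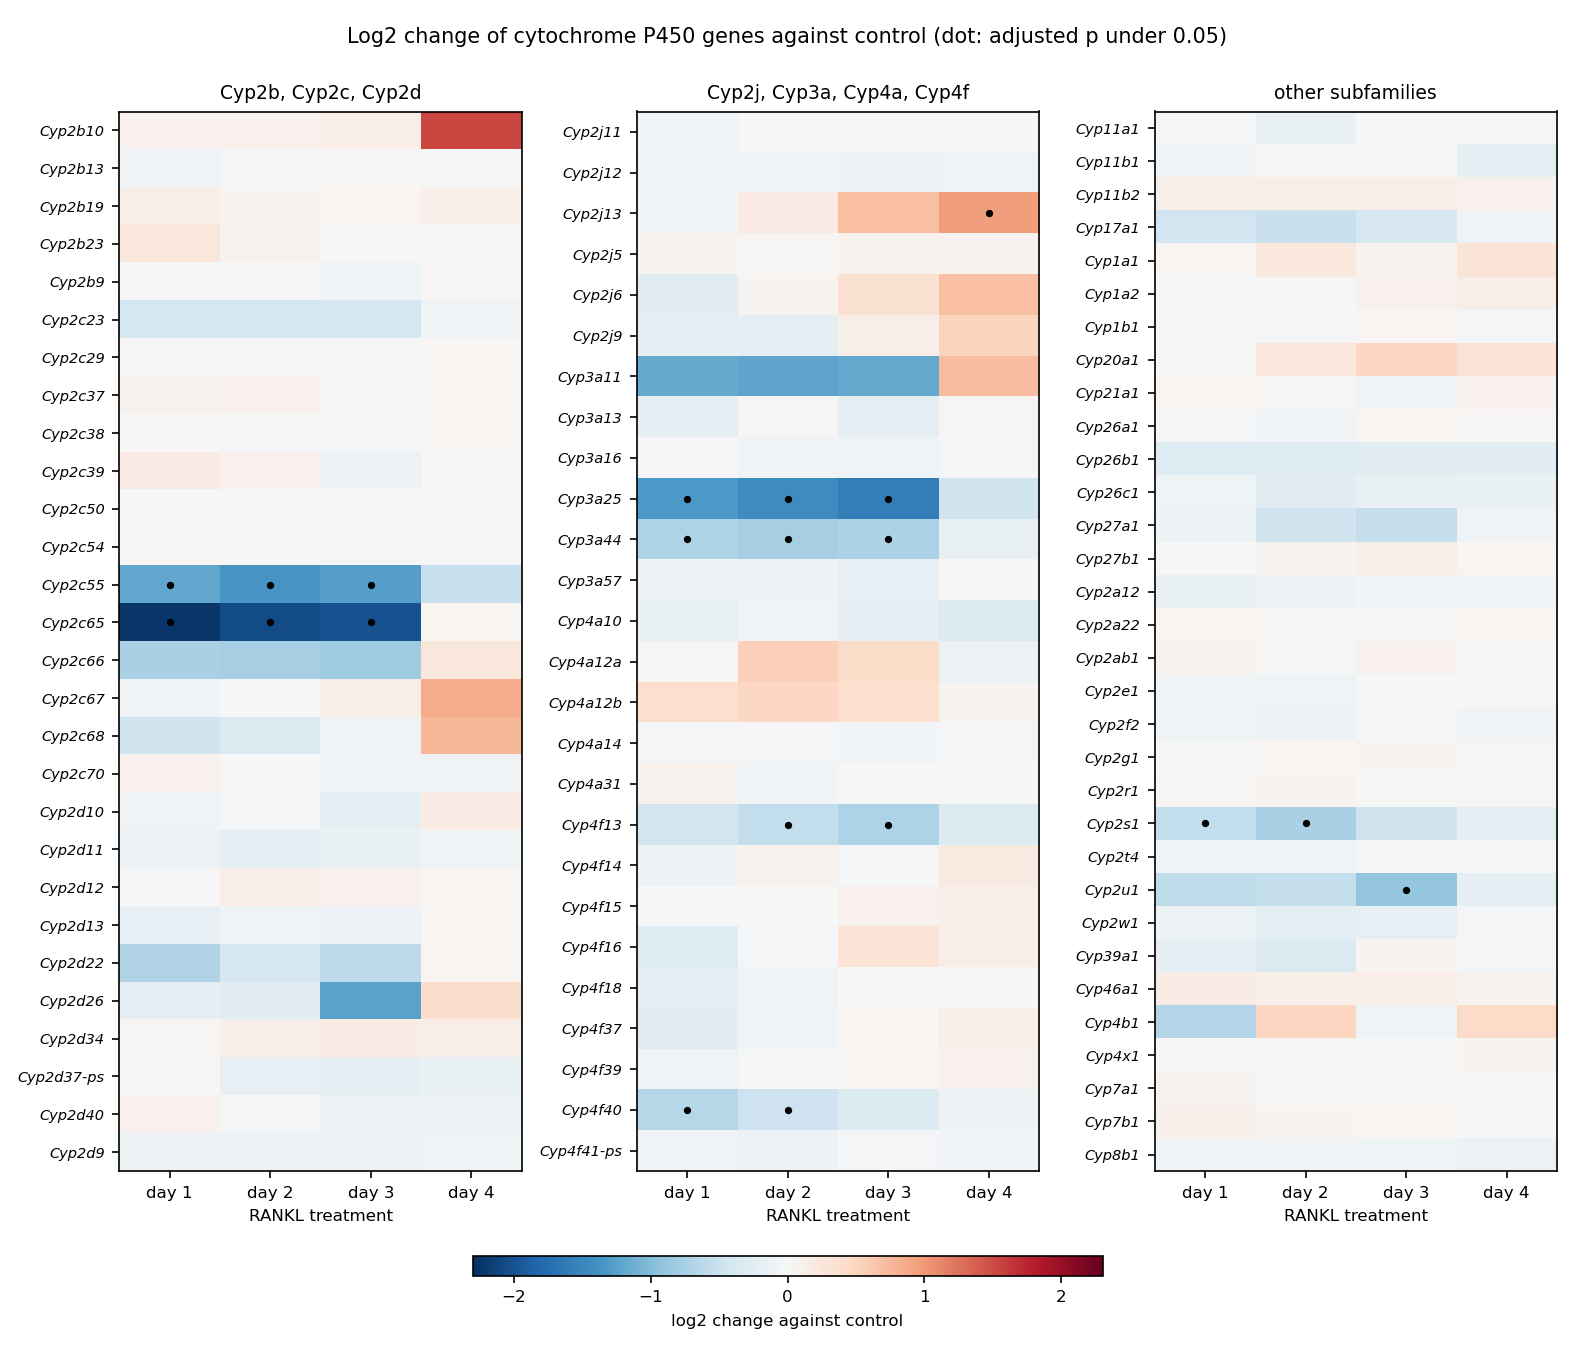
Heat map of the log2 change of all 86 P450 genes (rows, grouped by subfamily) on RANKL days 1 to 4 against control (columns), n = 3 arrays a group, with blue for lower, red for higher and a dot where the gene was called. The dots on days 1 to 3 are all on blue cells, in the Cyp2c, Cyp3a, Cyp4f, Cyp2s and Cyp2u subfamilies, and the single dot on day 4 is on the red cell of Cyp2j13.

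On each of days 1, 2 and 3 the same 4 genes fell: Cyp2c65, Cyp2c55, Cyp3a25 and Cyp3a44. Of all genes, 0.451% were called lower on those 3 days. A further 7 P450 genes were not called on every one of these days but had all 9 RANKL arrays of days 1 to 3 below all 3 control arrays, which makes 11 of 86, against 2.57% of all genes. These were Cyp17a1, Cyp2c23, Cyp2c66, Cyp2s1, Cyp2u1, Cyp4f13 and Cyp4f40. The number called lower on all of days 1 to 3 was between 0 and 7 over the 26 other settings tried. It was 0 without control replicate 3 and 1 without day 3 replicate 3, and 2 without day 2 replicate 2 or without day 3 replicate 2. With all arrays it was also 0 with the ordinary t statistic, which has no moderation, and 1 with only the groups compared. How many of all genes met this in those settings was not counted.

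Promoters of 6 P450 genes are shown to set neighbouring or related genes side by side. They were chosen after a search for motifs and 5 of the 6 hold the motif in capitals, so they do not stand for the genes that moved. Of the 13 P450 genes called in any contrast or F test, 12 had a promoter entry, and 5 of those 12 held the motif (41.7%). The 7 without it were Cyp2c55, Cyp2j6, Cyp2j13, Cyp2s1, Cyp4f13, Cyp4f37 and Cyp4f40. The windows are the 250 bases upstream of the start of each gene, on the gene's strand, from RefSeq on build GRCm38.p6, the C57BL/6J reference and not the BALB/c genome of these mice. Capitals mark CAAAGT, the core of the binding motif of hepatocyte nuclear factor 4 (HNF4), or its reverse complement ACTTTG. Their positions are chr19:39060756-39061005 (+) for Cyp2c65, chr19:39113648-39113897 (+) for Cyp2c66, chr19:39006769-39007018 (+) for Cyp2c55, chr5:146009619-146009868 (-) for Cyp3a25, chr5:145805875-145806124 (-) for Cyp3a44 and chr4:96591486-96591735 (-) for Cyp2j9.
Cyp2c65: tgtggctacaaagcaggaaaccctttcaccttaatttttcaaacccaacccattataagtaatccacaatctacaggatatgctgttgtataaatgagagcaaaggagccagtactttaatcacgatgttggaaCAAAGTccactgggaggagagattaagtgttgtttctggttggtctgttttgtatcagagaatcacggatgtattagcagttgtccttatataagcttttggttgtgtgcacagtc
Cyp2c66: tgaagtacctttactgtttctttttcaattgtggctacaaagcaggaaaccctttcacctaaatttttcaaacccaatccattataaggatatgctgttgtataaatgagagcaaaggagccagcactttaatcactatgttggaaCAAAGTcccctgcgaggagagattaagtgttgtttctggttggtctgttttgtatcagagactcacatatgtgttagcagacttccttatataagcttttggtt
Cyp2c55: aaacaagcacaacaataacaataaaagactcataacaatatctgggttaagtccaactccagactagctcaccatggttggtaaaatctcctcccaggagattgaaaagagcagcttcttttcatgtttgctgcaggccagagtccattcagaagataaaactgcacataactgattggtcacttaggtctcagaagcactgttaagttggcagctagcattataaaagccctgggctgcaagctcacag
Cyp3a25: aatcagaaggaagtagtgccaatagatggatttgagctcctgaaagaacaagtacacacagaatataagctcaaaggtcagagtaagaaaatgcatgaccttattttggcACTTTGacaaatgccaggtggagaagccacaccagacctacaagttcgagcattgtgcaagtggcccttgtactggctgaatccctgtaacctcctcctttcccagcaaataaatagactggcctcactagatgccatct
Cyp3a44: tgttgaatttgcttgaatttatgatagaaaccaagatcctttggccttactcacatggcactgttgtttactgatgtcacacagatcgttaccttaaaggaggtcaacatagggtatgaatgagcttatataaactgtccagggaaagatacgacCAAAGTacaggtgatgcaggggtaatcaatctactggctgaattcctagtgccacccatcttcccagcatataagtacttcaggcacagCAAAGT
Cyp2j9: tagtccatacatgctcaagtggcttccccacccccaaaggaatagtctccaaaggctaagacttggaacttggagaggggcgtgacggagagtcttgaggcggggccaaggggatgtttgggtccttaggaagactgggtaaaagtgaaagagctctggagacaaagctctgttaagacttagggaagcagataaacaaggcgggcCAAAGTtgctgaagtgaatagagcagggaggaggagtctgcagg
The 2 Cyp2c windows at the top share 74.6% of their aligned bases, and their capitals begin 116 and 104 bases upstream of the start. Cyp2c55, the neighbour that fell with Cyp2c65, shared 51.8% with it and has no CAAAGT in its window. Cyp3a25 and Cyp3a44 also shared 51.8%. Pairs from different subfamilies shared 39.5% to 50.2% over 85 pairs, so 51.8% lies just above their range. Cyp3a44 shared 71.7% with Cyp3a11, which was not called. Cyp3a44 holds the motif at 95 and at 6 bases upstream. On either strand the motif was present in 24 of the 63 P450 promoters found in the RefSeq table (38.1%) and in 12.5% of 27025 promoters of all genes. Of the other motifs searched on both strands, TATAAA (the TATA box) was in 36.5% of the P450 promoters and 13% of all, and AGGTCA (the half-site bound by nuclear receptors) in 22.2% and 13.8%. AGTTCA, the half-site variant bound by the pregnane X receptor, which can overlap CAAAGT by 3 letters, was in 9.52% of the P450 promoters and 11.9% of all. GCGTG, the core bound by the aryl hydrocarbon receptor, was in 22.2% and 28.2%. TTTATG, a CDX core, was in 14.3% and 11.1%, GTTAAT, a half-site of HNF1, in 4.76% and 6.52%, and TGAGTCA, the AP-1 site, in 4.76% and 4.43%. These matches describe letters and no binding was measured.

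Cyp2c65, an arachidonic acid-oxidising enzyme of the mouse gut, had the largest falls of the family on days 1, 2 and 3. Its control arrays were at 9.34, 9.79 and 10.76, its day 1 arrays at 7.53, 7.40 and 8.24, its day 2 arrays at 7.93, 7.33 and 8.45, its day 3 arrays at 7.75, 8.53 and 7.62, and its day 4 arrays at 10.66, 9.64 and 9.74. The 9 arrays of days 1 to 3 all lay below the lowest control, and the day 4 arrays lay within the control range. The change was -2.24 ± 0.40 (SE) on day 1 (adjusted p = 0.00603), which is 4.73-fold lower, -2.06 ± 0.40 on day 2 (adjusted p = 0.0127) and -2.00 ± 0.40 on day 3 (adjusted p = 0.0171). On day 4 it was 0.05, with a 95% interval from -0.82 to 0.91 (adjusted p = 0.982), and day 4 exceeded day 1 by 2.29 ± 0.40 (adjusted p = 0.0139). The day 1 call held in all 26 other settings. The day 2 call was lost without control replicate 3 (adjusted p = 0.0653) or day 2 replicate 2 (0.0724), the day 3 call without control replicate 3 (0.0762) or day 3 replicate 1 or 3 (0.0546 and 0.0890), and the difference between days 4 and 1 without day 1 replicate 1 or 2 (0.0542 and 0.0503) or day 4 replicate 1 (0.0840).

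Cyp2c55, which in mice hydroxylates arachidonic acid, lies next to Cyp2c65 and fell with it. Its control arrays were at 6.60, 6.84 and 7.61, its day 1 arrays at 5.78, 5.68 and 5.99, its day 2 arrays at 5.64, 5.73 and 5.60, its day 3 arrays at 5.83, 5.78 and 5.65, and its day 4 arrays at 6.82, 5.80 and 6.82. The arrays of days 1 to 3 lay between 5.60 and 5.99, below every control and just above the Y-linked background range, and on day 4 replicate 2 stayed at their level while the other two arrays were within the control range. The change was -1.20 ± 0.26 on day 1 (adjusted p = 0.0199), -1.36 ± 0.26 on day 2 (adjusted p = 0.0117) and -1.26 ± 0.26 on day 3 (adjusted p = 0.0191). On day 4 it was -0.54 ± 0.26 (adjusted p = 0.553). Without control replicate 3, the highest control, the changes were -0.90, -1.06 and -0.97 and all 3 calls were lost (adjusted p = 0.0797, 0.0513 and 0.0764), as was day 1 without its replicate 1 (0.0628) and day 3 without its replicate 2 or 3 (0.0587 and 0.0890).

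Cyp2c66, the third gene of this end of the cluster, was not called on any day. Its control arrays were at 7.50, 7.69 and 8.86, its day 1 arrays at 6.99, 7.38 and 7.47, its day 2 arrays at 7.36, 7.09 and 7.34, its day 3 arrays at 7.13, 7.38 and 7.08, and its day 4 arrays at 8.83, 8.09 and 7.93. All 9 arrays of days 1 to 3 lay below all 3 controls, but the changes of -0.74, -0.76 and -0.82 (SE 0.30) had adjusted p-values of 0.244, 0.292 and 0.179. Of the other Cyp2c genes, Cyp2c23 alone also had all 9 of these arrays below all controls, with changes of -0.41, -0.41 and -0.40 that were not called (adjusted p = 0.0823, 0.109 and 0.102). From Cyp2c55, Cyp2c65 and Cyp2c66 the order along the chromosome runs on through Cyp2c29, Cyp2c39, Cyp2c38, Cyp2c67, Cyp2c68, Cyp2c37, Cyp2c54, Cyp2c50 and Cyp2c70 to Cyp2c23. Across the 13 Cyp2c genes the median change on day 1 was -0.01, with 2 of 13 called, and 10 of the 13 were among the dimmest 40% of genes.

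Cyp2c67 and Cyp2c68, a neighbouring pair whose promoter windows share 63.1% of aligned bases, had their highest values on day 4. Cyp2c68 was at 7.58, 7.70 and 8.35 in control, 7.79, 6.87 and 7.61 on day 1, 7.46, 7.51 and 7.67 on day 2, 7.60, 8.11 and 7.63 on day 3, and 8.94, 8.57 and 8.44 on day 4. Every day 4 array exceeded every other array. Against control the day 4 change of 0.77 ± 0.24 was not called (adjusted p = 0.244), and against day 1 Cyp2c68 rose by 1.22 ± 0.24 (adjusted p = 0.0252). That call was lost without day 1 replicate 2 (0.0709) or without day 4 replicate 1 or 2 (0.152 and 0.0637). Cyp2c67 was at 5.81, 6.29 and 6.64 in control and 7.34, 7.07 and 6.87 on day 4, groups that did not overlap, with a change of 0.85 ± 0.23 that was not called (adjusted p = 0.156) except without day 1 replicate 2 (0.0480). One probe set carrying the symbols of 4 Cyp2c genes was not counted as a gene.

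**Figure D2:**
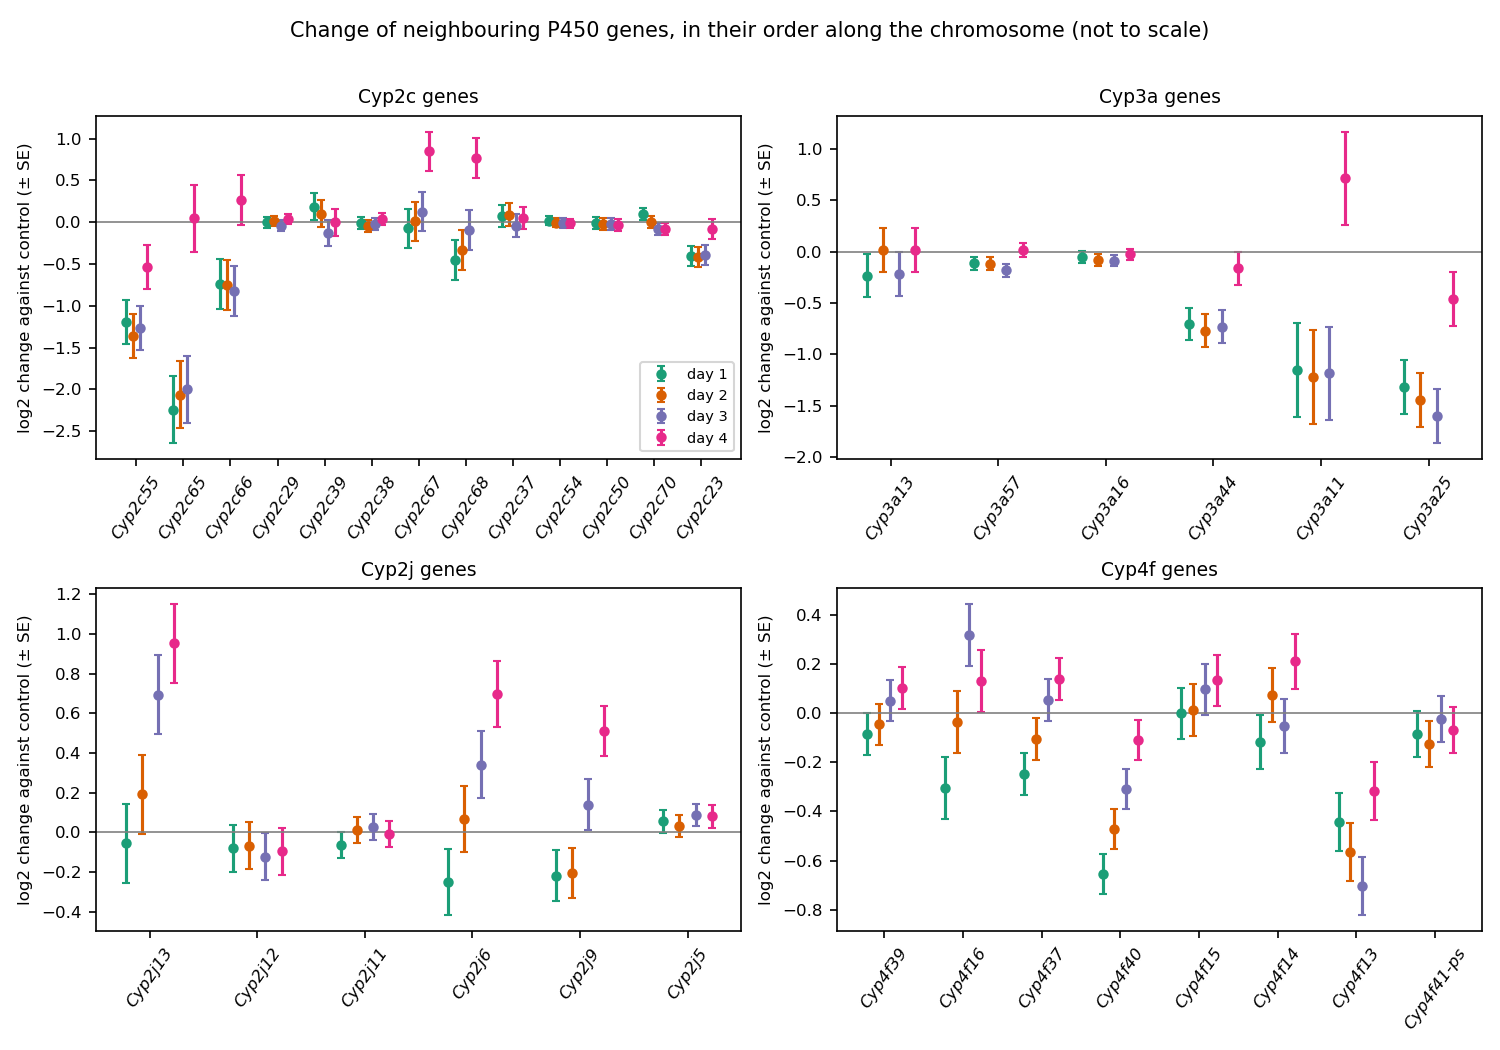
Log2 change against control (± SE, n = 3 arrays a group) on RANKL days 1 to 4 for the measured Cyp2c, Cyp3a, Cyp2j and Cyp4f genes, placed in their order along chromosomes 19, 5, 4 and 17 and not to scale. Falls on days 1 to 3 are at the Cyp2c55 and Cyp2c65 end of the Cyp2c genes and at Cyp3a44, Cyp3a11 and Cyp3a25. Those of Cyp3a11 were not called. Cyp4f40 and Cyp4f13 are also below control on days 1 to 3. Among the Cyp2j genes the day 4 change is above 0.5 at Cyp2j13, Cyp2j6 and Cyp2j9. Cyp2c67, Cyp2c68 and Cyp3a11 are also above control on day 4, by 0.85, 0.77 and 0.71.

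The Cyp3a genes are the main drug-oxidising subfamily of gut and liver. Of the 6, Cyp3a16 and Cyp3a57 lay within or below the Y-linked range on every array and give no level here. The other 4 all had a lower mean than control on day 1, and 2 of them were called. Their median change was -0.93 on day 1, -0.99 on day 2, -0.96 on day 3 and -0.07 on day 4. Cyp3a25 was at 10.82, 11.58 and 12.05 in control, 10.09, 10.17 and 10.23 on day 1, 9.81, 10.31 and 10.01 on day 2, 9.67, 10.01 and 9.98 on day 3, and 11.45, 11.06 and 10.56 on day 4. The arrays of days 1 to 3 lay below every control, and the day 4 arrays overlapped the controls. The change was -1.32 ± 0.26 on day 1 (adjusted p = 0.0117), -1.44 ± 0.26 on day 2 (adjusted p = 0.00856) and -1.60 ± 0.26 on day 3 (adjusted p = 0.00519), which is 3.03-fold lower. On day 4 it was -0.46 with a 95% interval from -1.03 to 0.11 (adjusted p = 0.645). The day 3 call held in all 26 other settings, the day 1 call was lost without control replicate 3 (0.0535), and the day 2 call, at a p just over the threshold, without day 2 replicate 1. The day 1 call was also lost with the ordinary t statistic (0.0506) and with only the groups compared (0.0776).

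Cyp3a44, known in mouse liver for its higher expression in females, was at 6.96, 7.03 and 7.08 in control, 6.57, 6.04 and 6.35 on day 1, 6.36, 6.25 and 6.15 on day 2, 6.36, 6.35 and 6.18 on day 3, and 7.23, 6.86 and 6.50 on day 4. Here too the groups of days 1 to 3 lay wholly below the controls. It fell by 0.70 ± 0.16 on day 1 (adjusted p = 0.0227), by 0.77 ± 0.16 on day 2 (adjusted p = 0.0178) and by 0.73 ± 0.16 on day 3 (adjusted p = 0.0253). The day 1 call was lost when any 1 control, or day 1 replicate 2 or 3, was left out (adjusted p up to 0.0859). The day 2 call was lost without control replicate 2 or 3 or day 2 replicate 2 or 3 (up to 0.0797), and the day 3 call without any 1 control or any 1 day 3 array (up to 0.117).

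Cyp3a11, the chief xenobiotic-oxidising Cyp3a enzyme of mouse liver and gut, had a wide spread in control and was not called. Its control arrays were at 6.68, 7.64 and 8.59, its day 1 arrays at 6.54, 6.42 and 6.48, its day 2 arrays at 6.63, 6.39 and 6.22, its day 3 arrays at 6.41, 7.06 and 5.87, and its day 4 arrays at 9.32, 8.03 and 7.70. Days 1 and 2 lay below all controls, day 3 overlapped them, and the 3 day 4 arrays were all above the 9 arrays of days 1 to 3. The changes of -1.15, -1.22 and -1.19 (SE 0.45) on days 1 to 3 had adjusted p-values of 0.224, 0.246 and 0.205, and the day 4 mean was 1.87 ± 0.45 above that of day 1 (adjusted p = 0.0638), a difference called without control replicate 1 or 3 (0.0376 and 0.0421). Cyp3a13, which lies apart from the other Cyp3a genes on chromosome 5, had changes of -0.23, 0.02, -0.21 and 0.02 on days 1 to 4, with a 95% interval on day 1 from -0.69 to 0.23. Cyp3a genes are close in sequence and several probe sets carry more than 1 of their symbols. How far the one-symbol probe sets also read their relatives was not tested.

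Outside these subfamilies, Cyp2s1, an epithelial P450 known for retinoid and eicosanoid metabolism, fell on days 1 and 2. Its arrays were at 10.76, 10.43 and 10.48 in control, 10.03, 9.99 and 9.96 on day 1, 9.77, 9.98 and 9.71 on day 2, 9.97, 10.24 and 10.09 on day 3, and 10.40, 10.09 and 10.49 on day 4. Days 1, 2 and 3 lay wholly below control and day 4 overlapped it. The change was -0.56 ± 0.12 on day 1 (adjusted p = 0.0159), -0.74 ± 0.12 on day 2 (adjusted p = 0.00330) and -0.46 ± 0.12 on day 3 (adjusted p = 0.0559). The day 2 call held in all 26 other settings, and the day 1 call was lost without control replicate 1 (0.0641) or day 1 replicate 3 (0.0519).

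Cyp2u1, which hydroxylates long-chain fatty acids, was called on day 3. Its arrays were at 10.13, 9.80 and 9.95 in control, 9.03, 9.62 and 9.48 on day 1, 9.43, 9.32 and 9.49 on day 2, 9.01, 9.24 and 8.96 on day 3, and 10.05, 9.74 and 9.49 on day 4. The arrays of days 1 to 3 were below every control array. It fell by 0.89 ± 0.16 on day 3 (adjusted p = 0.00822), a call that held in all 26 other settings, while the changes of -0.58 on day 1 and -0.55 on day 2 were not called (adjusted p = 0.0581 and 0.104). The day 1 change was called without day 1 replicate 2 (adjusted p = 0.0260) and without day 4 replicate 1 or 3 (0.0437 and 0.0456), and the day 2 change without day 1 replicate 1 (0.0455).

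**Figure D3:**
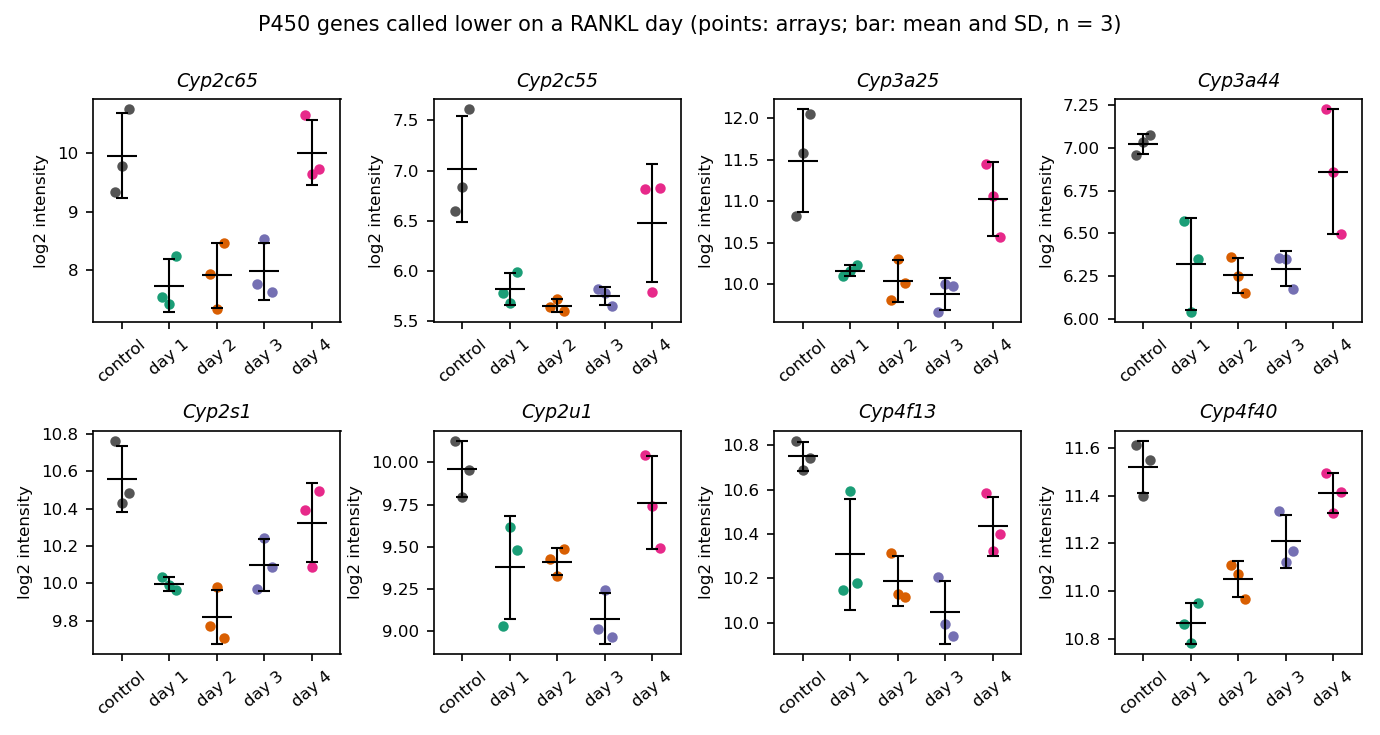
Log2 intensity of the 8 P450 genes called lower on at least 1 RANKL day, for control and days 1 to 4. Points are single arrays and the bar is the mean with its SD, n = 3; each panel has its own axis that does not start at 0. Cyp2c65, Cyp2c55, Cyp3a25 and Cyp3a44 are low on days 1 to 3 and were not called against control on day 4. Of these, Cyp2c65 alone was called for day 4 against day 1. Cyp2c55, Cyp3a25 and Cyp3a44 were not (limma adjusted p = 0.247, 0.143 and 0.125). Cyp4f40 is lowest on day 1 and higher on each later day.

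The 9 Cyp4f genes, a subfamily known for omega-hydroxylation of leukotrienes and long-chain fatty acids, all had a lower mean than control on day 1, of which 1 was called, with a median change of -0.21. Cyp4f40 was at 11.61, 11.40 and 11.55 in control, 10.86, 10.78 and 10.95 on day 1, 11.11, 11.07 and 10.97 on day 2, 11.33, 11.12 and 11.17 on day 3, and 11.49, 11.33 and 11.42 on day 4. Days 1, 2 and 3 lay below all controls and day 4 overlapped them. The change was -0.65 ± 0.08 on day 1 (adjusted p = 0.000377) and -0.47 ± 0.08 on day 2 (adjusted p = 0.00590), and on days 3 and 4 it was -0.31 and -0.11 (adjusted p = 0.0601 and 0.750). Day 4 exceeded day 1 by 0.55 ± 0.08 (adjusted p = 0.00585), a call lost with only the groups compared (0.121). The day 1 call held in all 26 other settings, and the day 2 call was lost under median centring (adjusted p = 0.0898).

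Cyp4f13 was lowest on day 3. It was at 10.82, 10.69 and 10.74 in control, 10.15, 10.60 and 10.18 on day 1, 10.32, 10.13 and 10.11 on day 2, 10.20, 10.00 and 9.94 on day 3, and 10.58, 10.32 and 10.40 on day 4. All RANKL arrays, those of day 4 included, were below the lowest control. The change was -0.44 ± 0.12 on day 1 (adjusted p = 0.0545), -0.56 ± 0.12 on day 2 (adjusted p = 0.0198), -0.70 ± 0.12 on day 3 (adjusted p = 0.00553) and -0.32 ± 0.12 on day 4 (adjusted p = 0.374). Whether the order of its days differs from that of Cyp4f40 was not tested. The day 3 call held in all 26 other settings, and the day 2 call was lost without control replicate 1 or 3 (0.0797 and 0.0711) or day 2 replicate 2 or 3 (0.0936 and 0.0692).

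Other Cyp4f genes were not called against control on any day. Cyp4f14, which omega-hydroxylates leukotriene B4, had a change of -0.12 on day 1, with a 95% interval from -0.36 to 0.12, and of 0.21 on day 4. Cyp4f16 had a change of -0.30 on day 1 and 0.32 on day 3 (adjusted p = 0.256 and 0.218). Cyp4f37 rose between day 1, at 6.21, 6.24 and 6.30, and day 4, at 6.70, 6.65 and 6.56, by 0.39 ± 0.09 (adjusted p = 0.0457). The 2 groups did not overlap, but that call was lost with the values as deposited (0.190) and when any 1 day 4 array, control replicate 2 or 3, day 1 replicate 1 or 2, day 2 replicate 1 or 2, or day 3 replicate 2 or 3 was left out (up to 0.207).

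The 6 genes of the Cyp2j subfamily, arachidonic acid epoxygenases, lie side by side on chromosome 4. Cyp2j6, Cyp2j9 and Cyp2j13 had another time course, with their highest means on day 4. The order along the chromosome is Cyp2j13, Cyp2j12, Cyp2j11, Cyp2j6, Cyp2j9 and Cyp2j5. Cyp2j13 was at 6.48, 6.88 and 6.53 in control, 6.52, 6.64 and 6.58 on day 1, 6.91, 6.88 and 6.68 on day 2, 7.15, 7.67 and 7.16 on day 3, and 7.93, 7.77 and 7.05 on day 4. All arrays of days 3 and 4 were above every control and every day 1 array. It rose by 0.95 ± 0.20 on day 4 against control (adjusted p = 0.0407) and by 1.01 ± 0.20 against day 1 (adjusted p = 0.0251). The day 4 call was lost when any 1 control, day 1 replicate 1 or 3, day 2 replicate 1 or 2, day 3 replicate 3, or day 4 replicate 1 or 2 was left out (up to 0.204), and the call against day 1 without day 1 replicate 1 or 2 (0.0771 and 0.0579) or day 4 replicate 1 or 2 (0.147 and 0.0953).

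Cyp2j6, known in mice as an intestinal member, was at 10.21, 10.23 and 10.43 in control, 9.89, 10.16 and 10.06 on day 1, 10.32, 10.51 and 10.24 on day 2, 10.39, 11.00 and 10.51 on day 3, and 11.24, 11.10 and 10.63 on day 4. Its day 1 arrays all lay below control and its day 4 arrays all above. Against control neither was called, with changes of -0.25 ± 0.17 on day 1 (adjusted p = 0.582) and 0.70 ± 0.17 on day 4 (adjusted p = 0.0820), and between days 1 and 4 it rose by 0.95 ± 0.17 (adjusted p = 0.0140). That call was lost without day 1 replicate 1 (0.0591) or day 4 replicate 1 or 2 (0.0844 and 0.0530). The day 4 change against control was called without day 3 replicate 2 (0.0372) or day 4 replicate 3 (0.0206).

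Cyp2j9 was at 7.20, 7.17 and 7.38 in control, 7.09, 6.97 and 7.04 on day 1, 7.12, 7.12 and 6.89 on day 2, 7.17, 7.68 and 7.31 on day 3, and 7.96, 7.74 and 7.58 on day 4. It had the same arrangement, with day 1 below and day 4 above every control. It rose by 0.73 ± 0.13 between days 1 and 4 (adjusted p = 0.0139). That call was lost without day 4 replicate 1 (0.0840), with the ordinary t statistic (0.0597) and with only the groups compared (0.121). The Cyp2j9 change of 0.51 ± 0.13 on day 4 against control was not called (adjusted p = 0.102) except without day 3 replicate 2 (0.0390). The other members were not called: Cyp2j5, Cyp2j11 and Cyp2j12 had day 4 changes of 0.08, -0.01 and -0.10, and all 3 are among the dimmest 40% of genes.

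**Figure D4:**
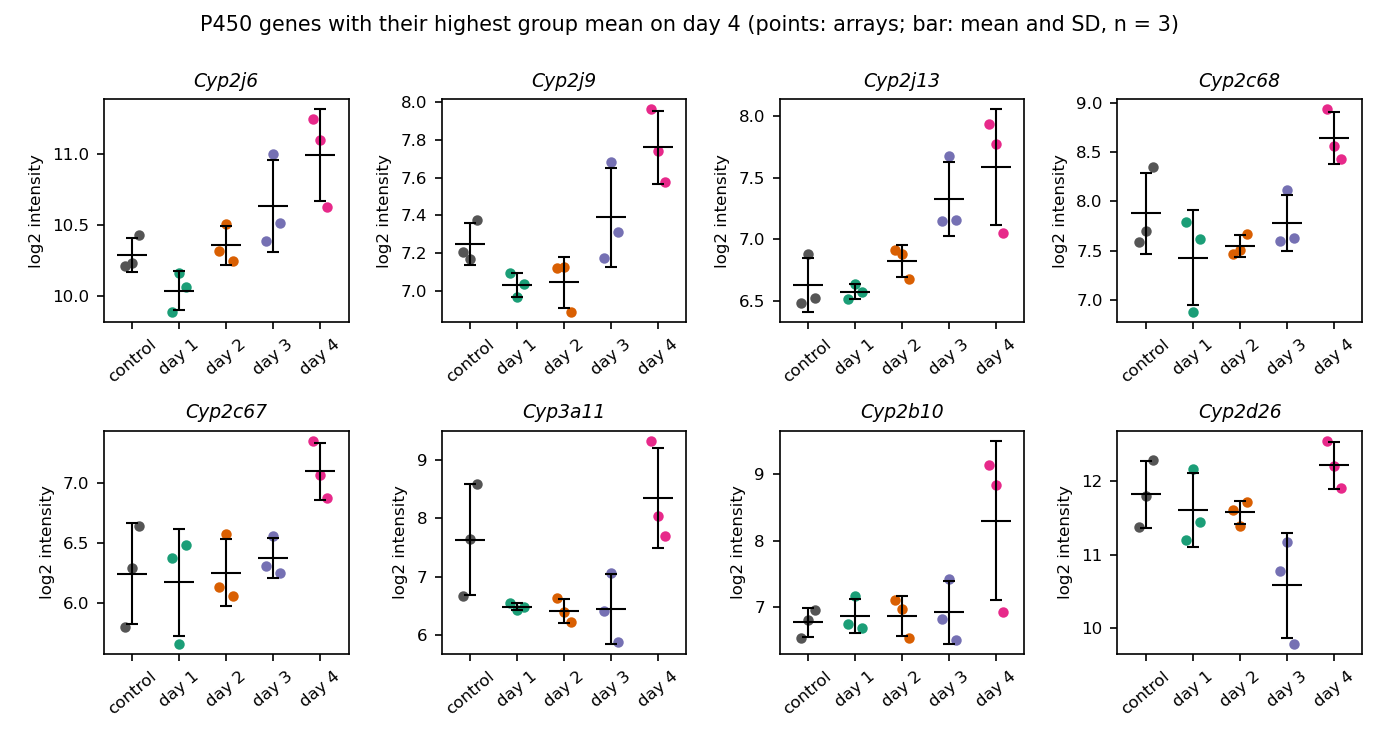
Log2 intensity of 8 P450 genes whose highest group mean was on day 4, for control and RANKL days 1 to 4. Points are single arrays and the bar is the mean with its SD, n = 3; each panel has its own axis that does not start at 0. Cyp2j6, Cyp2j9 and Cyp2j13 climb from day 1 to day 4, Cyp2b10 is high on 2 of the 3 day 4 arrays, and Cyp2d26 is lowest on day 3.

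Day 4 against day 1 compares RANKL days directly, with the spread estimated over all 15 arrays, controls included. There 7 of the 86 genes rose and 0 fell, against 1.32% of all genes called and 1.04% called higher: Cyp2c65, Cyp2c68, Cyp2j6, Cyp2j9, Cyp2j13, Cyp4f37 and Cyp4f40. In 19 of the 86, all day 4 arrays exceeded all day 1 arrays, against 12.8% of all genes, and in 3 they were all lower, against 6.71%. The F test among the 4 RANKL days called 4 genes, against 1.11% of all genes: Cyp2c65 (adjusted p = 0.0253), Cyp2j6 (0.0463), Cyp2j9 (0.0247) and Cyp4f40 (0.0189). The F test of the 4 days against control called 12, against 3.60% of all genes, namely the 9 genes called on single days with Cyp2j6, Cyp2j9 and Cyp2c68, the last at an adjusted p of 0.0498. The F test among days called 2 or fewer without day 1 replicate 1 or 3, day 2 replicate 1 or 2, or day 4 replicate 1 or 2. There 81 to 174 of all genes were called, against 221 with all arrays. The F test against control called 7 without control replicate 1 or 2, where 543 and 502 of all genes were called, against 718. The count for day 4 against day 1 was 1 without day 4 replicate 1 and 3 without day 4 replicate 2, day 1 replicate 1 or day 1 replicate 2. All genes called in those 4 fits numbered 58, 168, 143 and 170, against 263 with all arrays. A fit of the 2 groups alone called 0 P450 genes there and 4 of all 19938 genes.

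Some P450 genes varied widely between the arrays of a group. Cyp2b10, the best-known target of the constitutive androstane receptor, was at 6.53, 6.81 and 6.96 in control, stayed between 6.50 and 7.43 on days 1 to 3, and was at 9.14, 8.85 and 6.93 on day 4. Replicates 1 and 2 of day 4 were the highest of the 15 arrays and replicate 3 lay within the control range. The change of 1.53 ± 0.43 was not called (adjusted p = 0.167), and it was called without day 4 replicate 3 (adjusted p = 0.000846), which leaves 2 arrays in that group. Proximal segment markers, listed below, were at 10.31, 10.31 and 9.38 on the same 3 arrays. They were at 10.14 on day 1 replicate 2, 10.03 and 10.04 on day 2 replicates 1 and 2, and 10.24 on day 3 replicate 2, arrays on which Cyp2b10 was at 7.43 or below. Nr1i3 itself was at 8.75, 8.59 and 7.66 on the day 4 arrays and was not called (0.58 ± 0.26, adjusted p = 0.501). Their part in the Cyp2b10 values was not tested.

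Cyp2d26 was at 11.37, 11.80 and 12.28 in control and 10.78, 11.17 and 9.79 on day 3, below every other array of the gene. The change of -1.24 ± 0.33 was not called (adjusted p = 0.0657), and it was called without day 1 replicate 2 (0.0319) or day 3 replicate 2 (0.0443). None of the 10 Cyp2d genes, a subfamily known for drug oxidation, was called on any day. None of the 5 Cyp4a genes, fatty acid omega-hydroxylases that respond to PPAR-alpha in liver, was called either. The largest Cyp4a change was that of Cyp4a12a on day 2, from 6.10, 6.26 and 6.12 to 6.61, 6.81 and 6.72, groups that did not overlap (0.55 ± 0.16, adjusted p = 0.0945). All 5 are among the dimmest 40% of genes. Cyp4b1 was at 9.41, 9.60 and 9.86 in control and at 8.47, 9.80 and 8.58 on day 1, with the highest value again on replicate 2.

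Cyp1a1, the classical target of the aryl hydrocarbon receptor, stayed dim, with group means of 6.03 in control, 6.07, 6.28 and 6.12 on days 1 to 3 and 6.33 on day 4, and was not called. Cyp27a1, the sterol 27-hydroxylase, had changes between -0.54 and -0.09 and was not called. Cyp17a1, a steroid hydroxylase, was at 6.57, 7.09 and 6.99 in control and between 6.31 and 6.56 on the 9 arrays of days 1 to 3, with changes of -0.43, -0.51 and -0.37 that were not called (adjusted p = 0.186, 0.143 and 0.260).

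Of 27 measured regulators of P450 genes, a list chosen with earlier results known, 3 fell and 0 rose on day 1 (1.94% of all genes were called lower). On day 2, 3 fell and 1 rose, where 1.05% of all genes were called lower and 1.52% higher. On day 3, 2 fell (1.24% of all genes lower), and on day 4, 1 rose (0.818% of all genes higher). Vdr was at 12.34, 12.26 and 12.45 in control, 11.58, 11.47 and 11.43 on day 1, 11.72, 11.66 and 11.70 on day 2, 11.82, 11.86 and 11.64 on day 3, and 12.37, 12.01 and 12.29 on day 4. Days 1 to 3 were wholly below control and day 4 overlapped it, the arrangement seen for Cyp2c65 and Cyp3a25. It fell by 0.86 ± 0.09 on day 1 (adjusted p = 0.000141), by 0.66 on day 2 (adjusted p = 0.00159) and by 0.58 on day 3 (adjusted p = 0.00508), calls that held in all 26 other settings.

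Nr0b2, the corepressor SHP that bile acids induce through Nr1h4, was at 8.28, 8.20 and 8.94 in control, 7.50, 6.91 and 7.49 on day 1 and 7.34, 7.70 and 7.53 on day 2. Both days lay below control, with a change of -1.17 on day 1 (adjusted p = 0.00831) and -0.95 on day 2 (adjusted p = 0.0374), the latter lost without control replicate 1 or 3, any 1 day 2 array, day 3 replicate 3 or day 4 replicate 1 (up to 0.165). The day 1 call was lost with only the groups compared (0.0721). Nr0b2 was at 7.84, 7.44 and 7.60 on day 3 and 7.58, 7.29 and 7.98 on day 4, also below every control. Those changes of -0.85 and -0.86 were not called (adjusted p = 0.0595 and 0.117). Nr1h4 had changes of -0.91, -0.80, -0.56 and -0.57 on days 1 to 4, not called (adjusted p = 0.0611, 0.138, 0.285 and 0.486). Ppard fell by 0.56 on day 1 (adjusted p = 0.0305) and Rxra by 0.43 on days 2 and 3 (adjusted p = 0.0390 and 0.0371). Under median centring these 3 calls were lost (adjusted p = 0.0527, 0.300 and 0.280), as was that of Nr0b2 on day 2 (0.0660). Ppard was also lost without control replicate 1 or 2 or any 1 day 1 array (up to 0.115). Rxra was lost without any 1 control, day 3 replicate 3 or day 4 replicate 1 or 3 on both days, without day 1 replicate 3 or day 2 replicate 1 or 2 on day 2, and without day 2 replicate 1 or day 3 replicate 2 on day 3 (up to 0.197). Ahr rose by 0.53 on day 2 (adjusted p = 0.00856), from 8.35, 8.26 and 8.39 to 8.76, 8.88 and 8.94, in all 26 other settings as well. Pparg rose by 0.53 on day 4 (adjusted p = 0.0219), lost without control replicate 2 or any 1 day 4 array (up to 0.105). Of 2 regulators named for their known role in Cyp3a and Cyp2c transcription and not for a call, Nr1i2 had changes of -0.33, -0.07, -0.22 and -0.10 on days 1 to 4 (adjusted p = 0.0758 on day 1) and Hnf4a of 0.13, 0.09, -0.08 and 0.01. Hnf4g, the other HNF4 gene listed, had changes of -0.31, -0.28, -0.37 and -0.11. None was called (adjusted p = 0.202, 0.343, 0.122 and 0.832), though all its day 1 arrays lay below all controls.

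**Figure D5:**
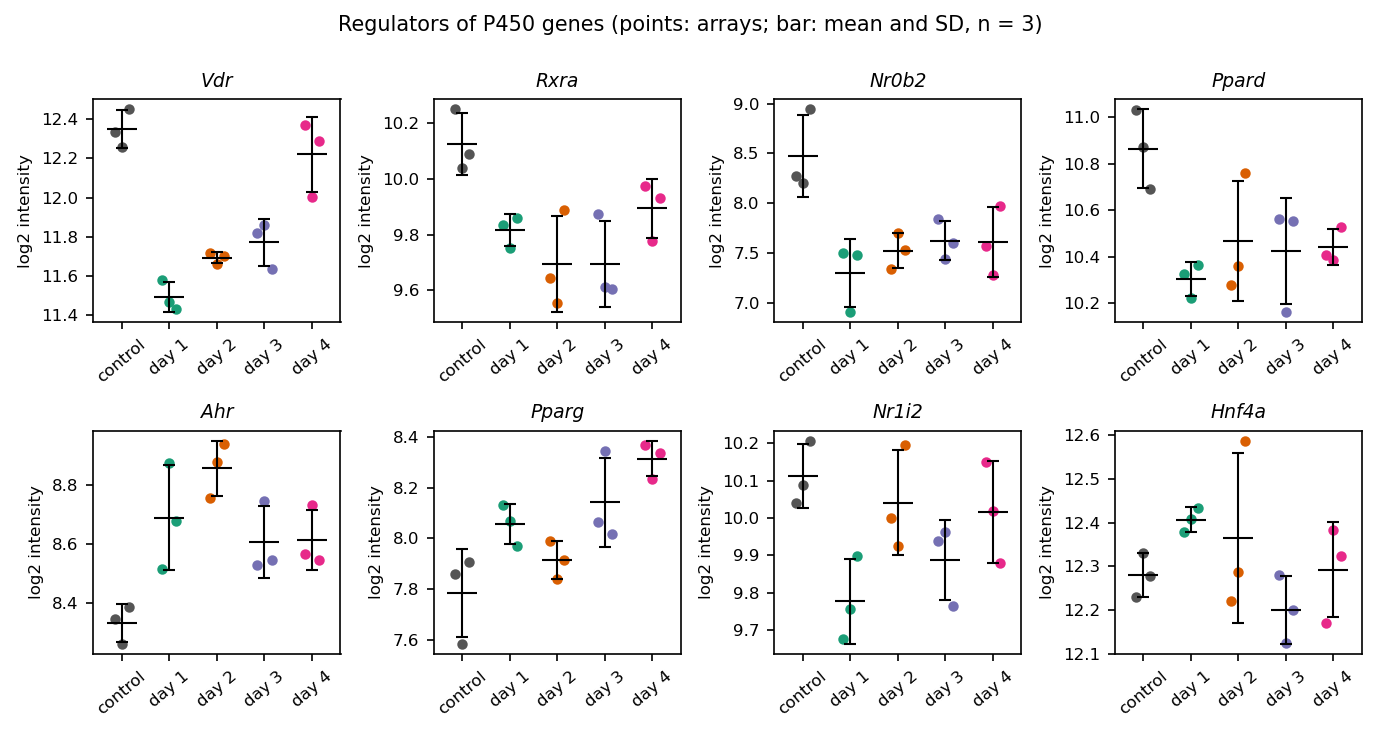
Log2 intensity of 8 regulators of P450 genes for control and RANKL days 1 to 4. Points are single arrays and the bar is the mean with its SD, n = 3; each panel has its own axis that does not start at 0. Vdr is low on days 1 to 3 and near control on day 4, Ahr is highest on day 2, and Nr1i2 and Hnf4a were not called on any day.

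Of 12 listed electron donors and haem enzymes that P450s need, 10 were measured. P450 reductase (Por) and ferredoxin reductase (Fdxr) were not analysed here. Of the 10, 1 was called lower on day 1, where 1.94% of all genes were, and 0 on days 2, 3 and 4. That gene was Cyb5a, microsomal cytochrome b5, which was at 11.81, 11.73 and 11.76 in control and 11.56, 11.40 and 11.46 on day 1. It fell by 0.29 (adjusted p = 0.0331), a call lost in 10 of the 26 other settings, and day 4 exceeded day 1 by 0.41 (adjusted p = 0.0131). Cyb5r3, cytochrome b5 reductase, had a day 4 change of 0.45 (adjusted p = 0.547) and was 0.59 higher on day 4 than on day 1 (adjusted p = 0.212), neither called. Alas1, the first enzyme of haem synthesis, had changes of 0.24, 0.34, 0.27 and 0.28 that were not called.

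Marker lists of the cell types present were read on the same arrays. None of 14 enterocyte markers was called lower on any day and 1 was called higher, Apoa4 on day 2. Their mean level per array ran from 11.94 to 12.52 in control, 11.87 to 12.65 on day 1, 12.46 to 12.56 on day 2, 12.04 to 12.53 on day 3 and 12.18 to 12.83 on day 4. Of 8 M cell markers, 7, 8, 8 and 7 rose on days 1 to 4, and their mean level went from 7.50 to 7.56 in control to 9.22 to 9.57, 10.29 to 10.48, 9.82 to 10.27 and 8.95 to 9.55. On day 4 the M cell markers were still above every control array, while Cyp2c65 lay within its control range. Of 5 measured tuft cell markers 0, 3, 3 and 4 rose, and of 8 enteroendocrine markers 0, 0, 2 and 5. Their highest means were on day 4, as for Cyp2j6, Cyp2j9 and Cyp2j13 but not for all Cyp2j genes. Tuft markers ran from 6.50 to 6.59 in control and 7.50 to 7.76 on day 4, and enteroendocrine markers from 8.53 to 8.61 and 9.08 to 9.27. The part of these cell types in the P450 values was not tested.

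Position along the intestine, to which P450 levels are known to be tied, also varied between arrays. The mean of 6 proximal segment markers, 3 of them also enterocyte markers, ran from 8.93 to 9.77 in control, 9.14 to 10.14 on day 1, 9.86 to 10.04 on day 2, 9.23 to 10.24 on day 3 and 9.38 to 10.31 on day 4. The mean of 5 ileal markers ran from 12.20 to 12.47 in control, 11.89 to 12.30 on day 1, 11.97 to 12.25 on day 2, 11.38 to 12.34 on day 3 and 11.49 to 12.29 on day 4, and none of the 5 was called. In control, replicate 1 had the lowest proximal mean and the lowest value of Cyp2c65, Cyp2c55, Cyp2c66, Cyp3a25, Cyp3a44 and Cyp3a11, and replicate 3 the highest of each. The means of enterocyte markers, at 11.94, 12.37 and 12.52, and of ileal markers, at 12.20, 12.45 and 12.47 in replicates 1, 2 and 3, had the same order there. Not every member had it. Of the ileal markers, Fgf15 (10.39, 11.40 and 11.97) and Slc51a did. Slc10a2 ran the other way (11.87, 11.81 and 11.65), and Fabp6 and Slc51b were lowest in replicate 3. Of the proximal markers, Gata4, Lct and Fabp1 had it, Apoa4 was lowest in replicate 2, and Onecut2 and Cybrd1 were highest in replicate 1. Cyp2s1, Cyp2u1, Cyp4f13 and Cyp4f40, also called lower on a RANKL day, had another order and were highest in control replicate 1. The part of segment in the differences between groups was not tested. Of 10 lymphoid and myeloid markers, 1 fell on day 1 and 1 rose on day 2, none of 9 stromal markers was called, none of 6 goblet markers was called, 1 of 5 Paneth markers fell on day 2, and 1 of 6 stem and cycling markers rose on day 1.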

How the data were processed

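The authors deposited linear intensities of 28853 probe sets on 15 Affymetrix whole-transcript arrays, running from 25.9 to 24106.7. Per the labels' protocols, the epithelium was peeled off with EDTA and the target labelled with the WT Terminal Labeling Kit. The genome build mm9 is named in the submitters' processing notes. How the authors summarised and normalized the probes is not given in the sources used here, and the precision is limited by the number of arrays.

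The intensities were taken to log2 (pseudocount 0) and quantile normalized. The annotation gave 21789 probe sets 1 gene symbol and 1621 several, and did not list 5443. The one-symbol probe set with the highest mean stood for each of 19938 genes, with no filter on dim genes. All 86 P450 genes had 1 probe set and matched the RefSeq gene table by Entrez ID. That table follows another build, so only the order of genes was taken from it.

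limma 3.58.1 in R 4.3.3 fitted 1 mean per group to all 15 arrays (10 residual and 3.49 prior degrees of freedom). Two-sided p-values were adjusted by Benjamini-Hochberg over all genes in each contrast, and a gene was called under 0.05. The fit was tested on simulated data. Groups were taken from the sample titles. The labels name no batch. Promoter windows were aligned end to end in pairs with Biopython 1.88 in Python 3.11.15.

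Named are all P450 genes called in any contrast or F test, other members of the subfamilies described, and up to 6 called genes of each other list. Nr1i2, Nr1h4, Hnf4a, Hnf4g, Alas1, the single segment markers and the genes whose groups did not overlap were named after their values were seen. The members, lists, motifs and naming rule were chosen with earlier results of these data known.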

Additional observations from a re-analysis of the deposited data

Results flagged for a closer look

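In 7 P450 genes the level on RANKL day 4 differed from that on RANKL day 1 by the test of the difference itself. The test was that of limma with Benjamini-Hochberg adjustment over all genes. On the log2 scale, day 4 minus day 1 was 2.29 for Cyp2c65 (adjusted p = 0.0139), 1.22 for Cyp2c68 (0.0252), 1.01 for Cyp2j13 (0.0251), 0.95 for Cyp2j6 (0.0140), 0.73 for Cyp2j9 (0.0139), 0.39 for Cyp4f37 (0.0457) and 0.55 for Cyp4f40 (0.00585). In each of the 7 all 3 day 4 arrays were above all 3 day 1 arrays.

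Probe sets that carry several gene symbols were left out of the gene table, and 7 of them hold a P450 symbol. In a fit over all 28853 probe sets, chosen after seeing the data, 2 of the 7 were called. Probe set 10527494, which carries 3 symbols of the Cyp3a subfamily, had a change of -1.70 on day 1 (adjusted p = 0.0232) and of -1.53 on day 3 (adjusted p = 0.0493), and on day 2 its change was -1.49 (adjusted p = 0.0621). Probe set 10535669, which carries 3 other Cyp3a symbols, had a change of -1.17 on day 3 (adjusted p = 0.0460). On day 4 their changes were -0.37 and -0.15 (adjusted p = 0.808 and 0.899). Which of the joined genes gave these values was not tested.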

How the results depend on the processing

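Of the 27 calls on single P450 genes, 6 held in all 26 other settings, 15 of which left out 1 array: Cyp2c65 and Cyp4f40 on day 1, Cyp2s1 on day 2, and Cyp2u1, Cyp3a25 and Cyp4f13 on day 3. Direction was followed for these 27 and for 30 uncalled changes picked by gene and size, and none reversed. Other named values, such as those of Cyp3a13 and Cyp4f14, were not followed. Of the 27, 17 were lost with the ordinary t statistic, 12 with only the groups compared and 12 without control replicate 3, the most for any array. The losses given gene by gene above mostly name left-out arrays and do not list every setting. The counts of P450 genes called on days 1 to 4 against control (6, 7, 6 and 1) ran over 3 to 9, 3 to 8, 3 to 10 and 0 to 3 when 1 array was left out. All genes called (785, 513, 590 and 181) ran over 445 to 1005, 283 to 721, 236 to 1189 and 94 to 338. Likewise the F test against control (12) ran over 7 to 14, the F test among days (4) over 0 to 5, and day 4 against day 1 (7) over 1 to 8. For these 3 tests all genes called (718, 221 and 263) ran over 430 to 1037, 81 to 207 and 58 to 507. The ordinary t or F statistic, with no moderation, gave 3, 3, 3 and 0 on days 1 to 4, 2 and 0 in the F tests and 1 for day 4 against day 1. All genes called by it numbered 540, 320, 324 and 107, then 342 and 45, and 101. Fitting only the groups compared gave 2 on day 1, 0 on day 4, 2 in the F test among days and 0 for day 4 against day 1. There 269, 145, 144 and 4 of all genes were called. Array weights gave 23 and 20 in the F tests and 13 for day 4 against day 1, with 1575, 866 and 644 of all genes called. Median centring gave 12 for day 4 against day 1 (584 of all genes). An offset of 16 gave 0 on day 4 (172 of all genes). The causes were not tested. With the replicate number as a block the counts were 8, 8, 9 and 1 on days 1 to 4, 13 and 5 in the F tests and 7 for day 4 against day 1. All genes called with the block numbered 1052, 635, 712 and 216, then 968 and 291, and 473. With it 7 P450 genes, against 4, were called lower on all of days 1 to 3. Pairs of arrays were also correlated after each gene's group mean was taken off. Of 30 same-numbered pairs 19 then correlated above 0.1 (from -0.20 to 0.50). By mean correlation with arrays of other groups, 12 of 15 arrays went best with their own number, a hint from the data. Not every pair passed 0.1 and the labels give the numbers no shared source, so the fit without the block was kept. The 57 members among the dimmest 40% of genes are limited by signal over background.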
